A study of Mus musculus with 17 samples.

Results

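Ribosomal protein genes took up 6.96 to 8.4% of all summed expression in mouse skin at days 3 to 9 after injury, and this share overlapped between irradiated and control skin. One member, Rps27l, was higher in irradiated skin. The genes were chosen by name from a deposited expression table of 34140 genes: protein-coding rows whose symbol is Rpl or Rps followed by a digit. Of 100 such rows, 10 encode Rps6k kinases and 9 carry -ps in their symbol, and both kinds were left out, which gave 81 genes. Of these, 48 have large-subunit names (Rpl) and 33 have small-subunit names (Rps). Rps19bp1, which encodes a binding partner of Rps19 and no subunit, falls under the name rule, and so does Rps27rt, a retrogene copy of Rps27.

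The ribosome reads messenger RNA and joins amino acids into protein. In the cytosol it is built from ribosomal RNA and from proteins of a large and a small subunit, nearly all present once per ribosome. Most genes of these proteins are expressed at a high level across cell types, though transcript levels differ between genes. In mammals most of their messenger RNAs begin with a C and a run of pyrimidines (C or T), through which the mTOR kinase controls their translation. A few members have paralogs with restricted expression or regulation: Rpl3l is the striated-muscle form of Rpl3, and Rps27l, a close relative of Rps27, is a target of the DNA damage regulator p53.

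The mice were C57/BL6j. Skin of irradiated mice, given ionizing radiation, was sampled at day 3 (3 libraries), day 6 (2) and day 9 (3) after injury. Skin of control mice was sampled at day 0 (2 libraries), day 3 (2), day 6 (2) and day 9 (3). Irradiated skin has no day 0 library. The sources used here do not give the radiation dose, the kind of wound, the age of the mice or the state of the day 0 skin. Nothing states that the libraries of a group came from separate animals, so p-values measure the spread between these 17 libraries, which may be technical. Values are FPKM, fragments per kilobase of gene length and scaled to the depth of the library, from paired-end Smart-Seq2 libraries.

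Each library held 25440773 to 30797409 assigned fragments, recovered from the FPKM steps, and the members took 4.095 to 5.63% of them. Skin markers were present in all groups, including 7 of 7 basal keratinocyte, 7 of 7 differentiated keratinocyte and 6 of 6 fibroblast markers that passed the filter on low values. The 2 control day 0 libraries stood apart from the other 15. Genes of the mitochondrial genome held 8.33 to 12.6% of summed FPKM in the later libraries, against 21.7 to 31.8% at day 0. Summed FPKM of 7 skeletal muscle markers was 1155 to 4127 in the later libraries and 16460 to 19190 at day 0. Basal keratinocyte markers summed to 3920 to 14520 FPKM in the later libraries and to 1888 to 3194 FPKM at day 0. Every comparison with day 0 rests on these 2 libraries.

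Most members were among the abundant transcripts. Averaged over the 17 libraries, 67 of 81 members were at 100 FPKM or more and 18 at 500 FPKM or more. The highest means were 1512 FPKM for Rps3a1, 1208 FPKM for Rpl41, 1109 FPKM for Rps15 and 996 FPKM for Rpl8, all 4 subunit proteins named here for their level. Only 6 members averaged under 20 FPKM, and 4 of them are named as paralogs of another member: Rpl3l at 14.8 FPKM, Rpl39l at 11.9 FPKM, Rpl22l1 at 11.1 FPKM and Rpl36al at 0.652 FPKM. The other two were Rpl13a at 4.95 FPKM and Rpl24 at 0.315 FPKM. Rpl24, with 6 to 16 fragments per library, and Rpl36al, with 13 to 35, stayed below 1 FPKM and were not tested. Ribosomal protein genes have many processed pseudogenes of near-identical sequence, and the sources used here do not say how shared reads were assigned, so levels between members are uncertain. FPKM divides by a gene length of 374 to 6270 bases (median 1734) that merges all annotated exons, which also sets levels between genes. In the table, 34 members overlap another gene, often a small nucleolar RNA hosted in an intron.

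Within the set, expression varied little between libraries. The highest library exceeded the lowest by a median of 1.46-fold over the 79 members tested, and 77 of them stayed under 2-fold. The exceptions were Rpl3l, with 46.3-fold, and Rpl39l, with 3.17-fold. The same 2 genes also had the largest spread within groups, with an SD of log2(FPKM + 1) of 0.40 for Rpl3l and 0.30 for Rpl39l, against a median of 0.11 over the members. Some libraries of 1 group differed by a shift that most members shared. In control skin at day 9 the median member was 0.21 lower on the log2 scale in replicate 3 than in replicate 2.

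RefSeq start sites were available for 62 of the 81 members on GRCm38.p6. A C followed by at least 4 pyrimidines covered the annotated start base in 20 of these 62 promoters (32.3%), against 2542 of 27025 genes (9.41%). Within 20 bases of the start, such a run was found in 77.4% of member promoters and 49.9% of all. The letters CCGGAAG, on either strand, lay between 250 bases before and 50 bases after the start in 38.7% of member promoters and 9.93% of all. AAGATGG was found in 16.1% of member promoters and 7.28% of all, GGGCGG in 59.7% and 38.2%, and TATAAA in 9.68% and 15.7%. Windows of 30 bases around the start are shown for Rps27 and its paralog Rps27l, on which the irradiation comparison turns, for the muscle form Rpl3l, and for Rpl27a and Rpl35 as examples with long runs. Each has 15 bases before the start and 15 from it, on the gene's strand, with the pyrimidine run in capitals. Their positions are chr9:66946071-66946100 (+ strand) for Rps27l, chr3:90213634-90213663 (- strand) for Rps27, chr17:24727811-24727840 (+ strand) for Rpl3l, chr7:109519180-109519209 (+ strand) for Rpl27a and chr2:39005117-39005146 (- strand) for Rpl35.
Rps27l: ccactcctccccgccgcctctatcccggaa
Rps27: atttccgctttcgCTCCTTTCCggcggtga
Rpl3l: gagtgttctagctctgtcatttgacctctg
Rpl27a: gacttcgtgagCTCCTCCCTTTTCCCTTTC
Rpl35: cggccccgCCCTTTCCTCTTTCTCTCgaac
Rps27, Rpl27a and Rpl35 carry the run across the start base, and the windows of Rps27l and Rpl3l hold no run that covers it.

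The summed level of the members overlapped between irradiated and control skin. At day 3 the 81 genes held 7.31 to 7.85% of all summed FPKM in irradiated skin, against 7.6 to 8.19% in control skin. At day 6 the shares were 7.46 to 7.9% in irradiated skin and 7.85 to 8.11% in control skin. At day 9 they were 7.21 to 7.81% in irradiated skin and 6.96 to 8.4% in control skin. Control skin at day 0 was lower, at 6.05 to 6.38%. Taken as a share of summed FPKM outside the mitochondrial genome, that gap was not seen. The later control groups held 7.84 to 9.37%, a range that takes in the 8.15 to 8.87% of day 0 skin. Counted as fragments outside that genome, the gap to days 3 and 6 remained. Day 0 skin held 4.97 and 4.36%, against 5.05 and 5.65% in control skin at day 3 and 5.96 and 5.32% at day 6. Control skin at day 9, at 4.89, 5.13 and 4.41%, overlapped day 0. In bulk skin, fewer cells of a type and less RNA per cell cannot be told apart.

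**Figure D1:**
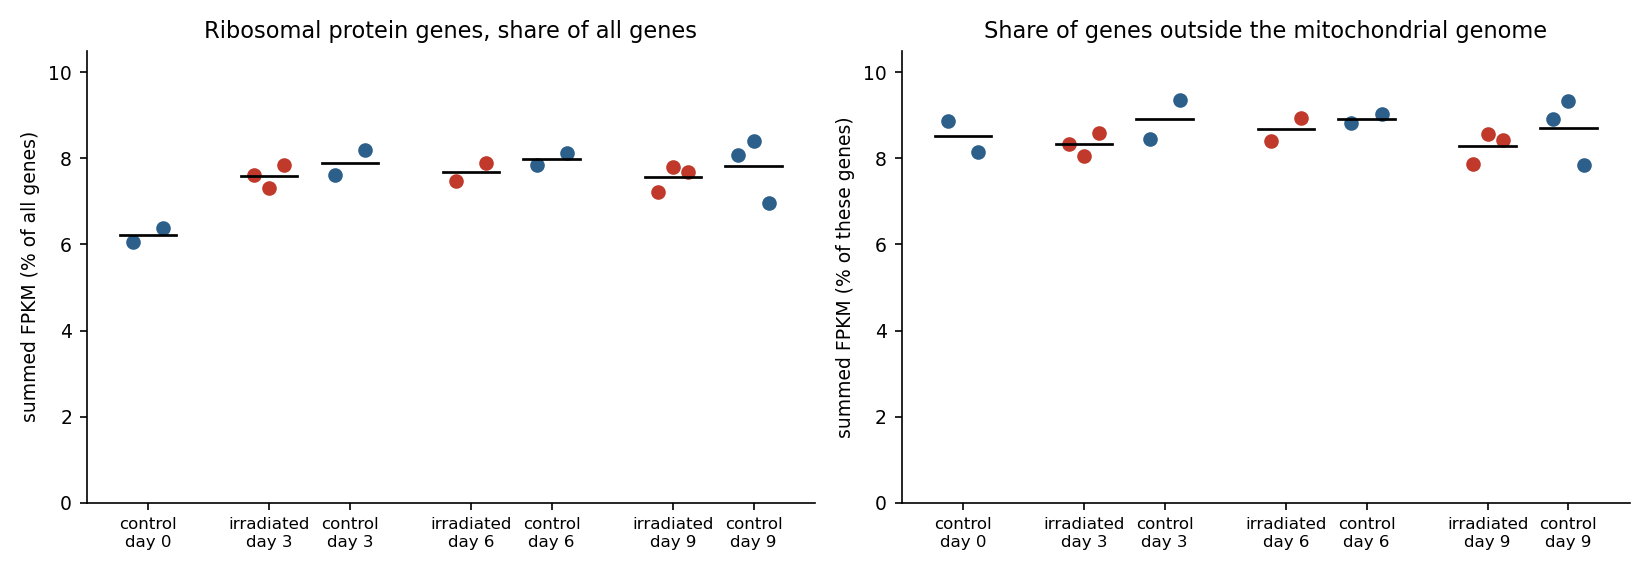
Summed FPKM of the 81 ribosomal protein genes in each library (points; red irradiated, blue control; black line, group mean) as a percent of all genes (left) and of genes outside the mitochondrial genome (right). On the left the control day 0 libraries lie lowest, at 6.05 to 6.38%, and on the right they lie within the range of the other groups.

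The effect of irradiation was first tested gene by gene, averaged with equal weight over days 3, 6 and 9, with limma on log2(FPKM + 1). Differences are irradiated minus control on that scale, and an adjusted p (Benjamini-Hochberg over all 15271 genes tested) under 0.05 passed. Of 79 members tested, 1 was higher (Rps27l) and 0 were lower, while 4.36% of all genes tested were higher. At an unadjusted p under 0.05 there were 6 members. Counts at this cut, here and below, come without the share of all genes and are not read as an excess. The median member was at -0.03 and the median of all genes at -0.01, with 23 members above 0 and 56 below. The 95% interval of the difference lay within 0.5 of 0 for 77 of the 79 members, the exceptions being Rpl39l and Rpl3l. Without irradiated day 6 replicate 3, 3 members were higher (Rps27l, Rpl39l and Rpl7l1), and without control day 9 replicate 3, Rpl22l1 was called besides Rps27l. The first of these fits leaves 1 irradiated library at day 6.

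Rps27l (ENSMUSG00000036781, chromosome 9, 66946086 to 66949516, mm10) encodes a small-subunit protein nearly identical to Rps27. In skin at day 3 it had 133, 133 and 125 FPKM in irradiated libraries, against 100.2 and 112 FPKM in control libraries. At day 6 the values were 135 and 121 FPKM in irradiated skin and 97.1 and 91.5 FPKM in control skin. At day 9 they were 112, 99.8 and 104 FPKM in irradiated skin and 94.1, 98.3 and 87.1 FPKM in control skin. Every irradiated library was above every control library of its day. Averaged over the 3 days the difference was 0.30 (SE 0.05, limma adjusted p = 0.00472). It passed under all 27 alternative settings, with differences of 0.25 to 0.35 and adjusted p from 0.00357 to 0.0218. Taken day by day, it was 0.30 at day 3 (adjusted p = 0.167), 0.44 at day 6 (0.11) and 0.17 at day 9 (0.226), none of which passed. An F test for unequal effects across the 3 days gave an adjusted p of 0.482. The 2 control day 0 libraries had 112 and 114 FPKM, and control skin at day 9 was 0.28 lower than day 0 on the log2 scale (SE 0.09, adjusted p = 0.0241), a call lost without either day 0 library or day 9 replicate 3. Each value rests on 1968 to 3336 fragments.

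Markers of some other cell types also differed between the arms. Averaged over the days, 5 of 5 red blood cell markers were lower in irradiated skin, with sums of 0.758 to 80.1 FPKM over the irradiated libraries and 76.6 to 209.7 FPKM over the control libraries of days 3 to 9. Taken by day, 5 were lower at day 3, 4 at day 6 and 0 at day 9. Of 7 macrophage and monocyte markers 2 were higher and 1 lower, of 6 adipocyte markers 2 were higher, and of 7 basal keratinocyte markers 1 was higher. At day 9 alone, 2 of 7 hair follicle markers were lower in irradiated skin, 3 of 6 adipocyte markers were higher and 1 of 7 basal keratinocyte markers was higher. The part of these cells in the Rps27l values was not tested.

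Its relative Rps27 did not pass the same test. Over days 3, 6 and 9 Rps27 had 210.0 to 268 FPKM in the 8 irradiated libraries (median 241) and 236 to 301 FPKM in the 7 control libraries (median 261.0). The averaged difference was -0.14 (SE 0.07, adjusted p = 0.244), and with quantile normalization it passed at -0.22 (adjusted p = 0.0363). The FPKM of Rps27l, as a percent of that of Rps27 in the same library, was 41.2 to 62.4% (median 52.7%) in irradiated skin and 32.2 to 41.3% (median 36.1%) in control skin of those days. The lowest irradiated library, at day 9, lay just under the highest control library, at day 3. At day 0 it was 45% and 53.7%. Rps27rt, whose protein sequence is close to that of Rps27, stood at 53.0 to 68.0% of Rps27 in irradiated skin and 55.6 to 69.7% in control skin, and reads of these 2 genes may be shared.

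**Figure D2:**
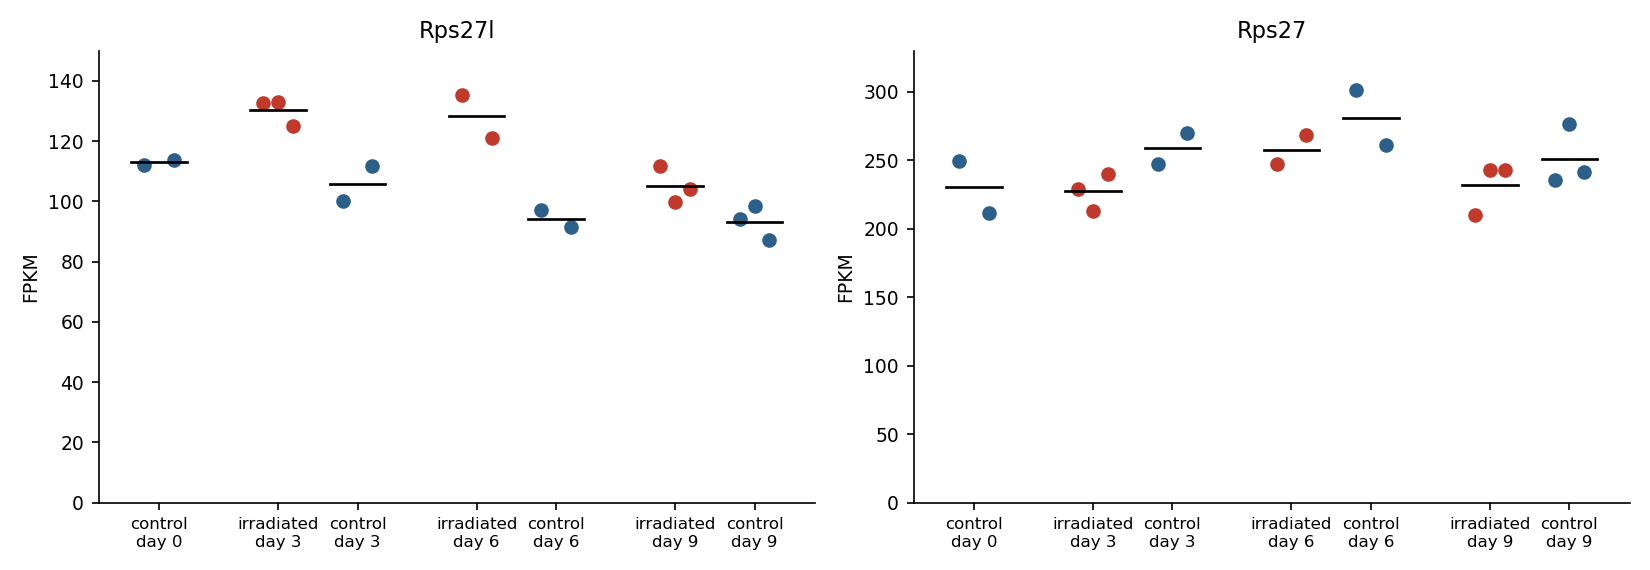
FPKM of Rps27l (left) and Rps27 (right) in each library (points; red irradiated, blue control; black line, group mean). For Rps27l every irradiated library lies above every control library of the same day, and for Rps27 the irradiated group means lie below the control means at days 3, 6 and 9, with single libraries overlapping at days 6 and 9.

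At single days no member passed in either direction. At day 3 the limma fit called 0 of 79 members, with 4 at an unadjusted p under 0.05 and a lowest adjusted p of 0.167, while 1.85% of all genes were called. The median member was at -0.09 against -0.04 over all genes, and 71 members were below 0. At day 6 limma called 0 members, with 9 at an unadjusted p under 0.05 and a lowest adjusted p of 0.11. At the adjusted threshold 0.275% of all genes were called. The median was -0.03 for members and 0.02 for all genes. At day 9 limma called 0 members, with 2 at an unadjusted p under 0.05 and a lowest adjusted p of 0.144, while 5.38% of all genes were called. Medians there were 0.02 for both. Day 6, with 2 libraries in each arm, was the least precise: the 95% interval lay within 0.5 of 0 for 66 members, against 75 at day 3 and 76 at day 9. Without irradiated replicate 3, 3 members passed at day 6 (Rps27l, Rpl39l and Rpl7l1), in a fit where the lone irradiated library is assumed to vary like those of the other groups. Without control replicate 3, Rpl22l1 alone passed at day 9.

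The difference between days was tested directly. The F test over days called 0 members (2 at an unadjusted p under 0.05, lowest adjusted p 0.216), and 0.0131% of all genes. The effect at day 9 minus that at day 3 called 0 members (1 at an unadjusted p under 0.05) and 0% of all genes. Its median member was at 0.11 against 0.04 over all genes, with 67 members above 0. The limma-voom fit on recovered fragments also called 0 members in the day 3, day 6, day 9 and both difference tests.

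**Figure D3:**
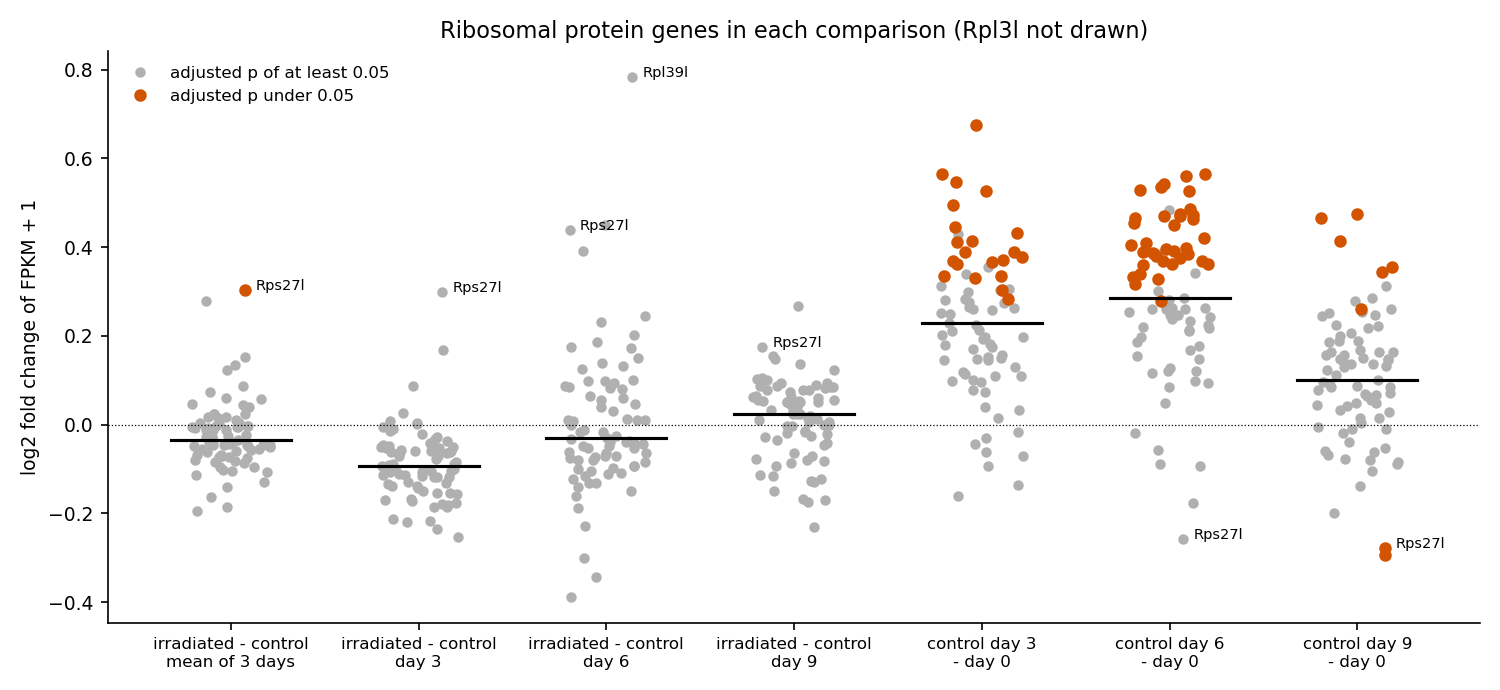
Log2 fold change of FPKM + 1 for 78 of the 79 members tested (points; orange, adjusted p under 0.05; grey, not) in 4 comparisons of irradiated with control skin and 3 of later control skin with control day 0; Rpl3l is not drawn and black lines are medians of all 79. Only Rps27l is orange among the irradiation comparisons, and most orange points at days 3 and 6 against day 0 lie between 0.28 and 0.67.

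Unlike the p53 target Rps27l, the members Rpl5, Rpl11 and Rpl23, named here for binding Mdm2, did not pass between the arms. Rpl5, Rpl11 and Rpl23 are large-subunit proteins that bind and inhibit Mdm2, the ligase that degrades p53, when ribosome assembly is disturbed. Over days 3, 6 and 9 Rpl11 had 250.3 to 339.9 FPKM in irradiated skin (median 268), against 229 to 308 FPKM in control skin (median 271). Its averaged difference was 0.02 (SE 0.07, adjusted p = 0.927). For Rpl5 the averaged difference was -0.07 (SE 0.06, adjusted p = 0.527) and for Rpl23 -0.06 (SE 0.07, adjusted p = 0.652). Rps6, the small-subunit protein phosphorylated by the S6 kinases downstream of mTOR, differed by -0.05 (SE 0.06, adjusted p = 0.692).

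Paralogs other than Rps27l did not pass between the arms. Rpl22l1, a paralog of the large-subunit protein Rpl22, had 9.28, 9.8 and 10.2 FPKM in irradiated skin at day 9, against 11.7, 13.5 and 9.98 FPKM in control skin. These groups overlapped, and the averaged difference was -0.16 (SE 0.06, adjusted p = 0.114), against -0.04 (SE 0.07, adjusted p = 0.799) for Rpl22. Rpl39l, the paralog of Rpl39 best known from male germ cells, had 23.6 and 11.1 FPKM in irradiated skin at day 6 and 7.44 and 10.9 FPKM in control skin. One irradiated library set this gap, and the difference of 0.78 (SE 0.27) had an adjusted p of 0.226. Rpl39 itself differed by 0.03 at day 6 (SE 0.13, adjusted p = 0.935). Rpl7l1, a relative of Rpl7 that acts in assembly of the large subunit, had 42.8 and 34.8 FPKM in irradiated skin at day 6 and 33.6 and 31.3 FPKM in control skin. Averaged over days its difference was 0.13 (SE 0.05, adjusted p = 0.167), beside -0.07 (SE 0.06, adjusted p = 0.534) for Rpl7.

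Rps19bp1 had 27.6 and 29.3 FPKM in irradiated skin at day 6, against 21.4 and 19.7 FPKM in control skin, and the groups did not overlap. That difference of 0.45 (SE 0.10) did not pass (adjusted p = 0.11). At day 3 it was -0.01 and at day 9 it was 0.01. Rps4x, an X-linked small-subunit protein, differed by -0.30 at day 6 (SE 0.12, adjusted p = 0.282) and by -0.11 on average (SE 0.07, adjusted p = 0.329).

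In control skin against day 0, with FPKM as deposited, the members' share called higher was above that of all genes at day 6, near it at day 3 and below it at day 9. At day 3, 21 of 79 members were higher and 1 lower than at day 0, against 25.8% of all genes higher and 12.4% lower. The members' share called higher, 26.6%, was near that of all genes. At day 6, 36 members (45.6%) were higher and 1 lower, against 21.1% of all genes higher and 14.2% lower. At day 9, 6 members (7.59%) were higher and 3 lower, against 30.4% of all genes higher and 18% lower. The median member stood at 0.23, 0.29 and 0.10 at days 3, 6 and 9, and the median of all genes at 0.16, 0.11 and 0.15. These 3 comparisons share the 2 day 0 libraries. In all, 39 members were called higher on at least 1 day and 40 on none. No matching count over all genes is given for these numbers or for members called higher on several days. They are therefore not read as particular to the members. Large-subunit genes made up 15 of the calls at day 3 (of 46 tested), 20 at day 6 and 5 at day 9, and small-subunit genes 6 (of 33 tested), 16 and 1. Of the 60 tested members with a promoter, those with a pyrimidine run on the start base were called higher at day 6 in 7 of 20 cases and those without in 21 of 40, a count given with no test.

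The 3 largest upward changes of each day were all of large-subunit genes. Called higher at both day 3 and day 6 were 18 members. Rpl3, which lies close to the centre where peptide bonds form, had 268 and 264 FPKM at day 0, 367 and 422 FPKM at day 3, 376 and 412 FPKM at day 6, and 362, 359.5 and 295 FPKM at day 9. Its difference from day 0 was 0.57 at day 3 (SE 0.13, adjusted p = 0.00479), 0.56 at day 6 (adjusted p = 0.00534) and 0.34 at day 9 (adjusted p = 0.03). Every later library of Rpl3 was above both day 0 libraries. Rpl41, one of the shortest proteins known, had 944 and 865 FPKM at day 0, 1283 and 1362 FPKM at day 3, 1512 and 1177 FPKM at day 6, and 1273, 1314 and 1161 FPKM at day 9. Those values gave differences of 0.55 at day 3 (SE 0.14, adjusted p = 0.00908), 0.56 at day 6 (adjusted p = 0.00881) and 0.46 at day 9 (adjusted p = 0.0103). The irradiated libraries of Rpl41 had 1058 to 1346 FPKM, which overlapped the 1161 to 1512 FPKM of the later control libraries.

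Rpl7l1 had 22.8 and 25.2 FPKM at day 0, 37.9 and 39.7 FPKM at day 3, 33.6 and 31.3 FPKM at day 6, and 35.2, 34.5 and 31.4 FPKM at day 9. At day 3 its difference of 0.67 (SE 0.10, adjusted p = 0.000416) was the largest upward change of any member. Rpl7l1 also passed at day 6 (0.42, adjusted p = 0.00758) and day 9 (0.47, adjusted p = 0.00138). Rpl10a was 0.54 higher at day 6 (SE 0.13, adjusted p = 0.00637) and Rpl29, another large-subunit protein, was 0.41 higher at day 9 (SE 0.13, adjusted p = 0.0213). At all 3 days 6 members were called higher: Rpl3, Rpl7l1, Rpl29, Rpl39, Rpl41 and Rps15a, the last chosen after its values were seen. Rpl5 passed at days 3 and 6 (0.41 and 0.46, adjusted p = 0.0155 and 0.00947), Rps6 at day 6 (0.41, adjusted p = 0.0155), and Rpl11 and Rpl23 at none of the days.

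The 3 members that fell on at least 1 day were Rpl3l, Rps27l and Rps15, a small-subunit protein. Rps15 had 1007, 1070.0 and 923 FPKM in control skin at day 9, against 1271 and 1179 FPKM at day 0, and the groups did not overlap. Its difference at day 9 was -0.29 (SE 0.11, adjusted p = 0.0426). Rps15 lost its call without either day 0 library and without day 9 replicate 1 or 3.

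How many members were called against day 0 depended on how libraries were scaled. The share of all genes called in these other fits is not given here. A loss of calls particular to the members therefore cannot be told from a general one. With FPKM rescaled to genes outside the mitochondrial genome, 3 members were higher and 1 lower at day 3 (higher were Rpl3, Rpl41 and Rpl7l1). At day 6, 1 was higher (Rpl41) and 3 lower (Rpl3l, Rps19bp1 and Rps27l), and at day 9, 3 were higher and 3 lower. The median member moved to 0.07, 0.06 and 0.04, and the median of all genes to 0.04, -0.06 and 0.10, at days 3, 6 and 9. Median-of-ratios scaling called 2 members higher and 1 lower at day 3, 3 higher and 2 lower at day 6, and 1 higher and 3 lower at day 9. When the members themselves were set to an equal median, 0 were higher and 8 lower at day 3, 0 higher and 10 lower at day 6, and 2 higher and 5 lower at day 9. That scaling centres the members, so its balance of higher and lower is set by the method. The calls also rested on single libraries. Where leaving out 1 library left a group with 1, that library was assumed to vary like those of the other groups. Against 37 members called at day 6, 4 were called without control day 6 replicate 1, 33 without control day 6 replicate 2, 24 without day 0 replicate 1 and 12 without day 0 replicate 2. Of 22 called at day 3, 3 were called without day 3 replicate 3, 13 without day 3 replicate 1, 12 without day 0 replicate 1 and 8 without day 0 replicate 2. Of 9 called at day 9, 5 were called without day 0 replicate 1, 2 without day 0 replicate 2, 4 without day 9 replicate 1, 5 without day 9 replicate 2 and 15 without day 9 replicate 3.

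**Figure D4:**
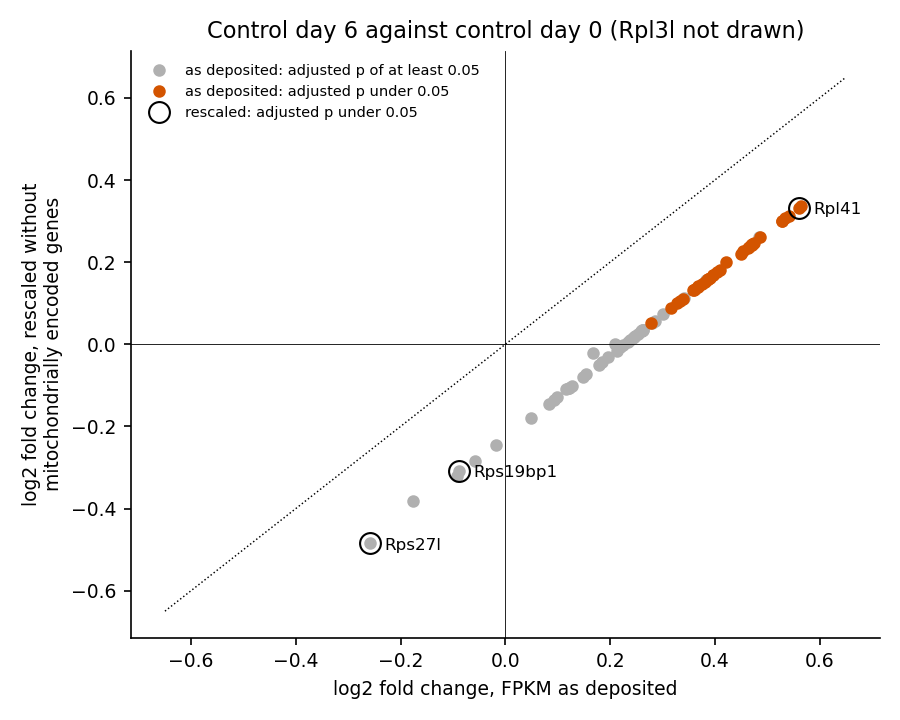
Log2 fold change of 78 members (Rpl3l not drawn) in control skin at day 6 against day 0, with FPKM as deposited (x) and rescaled to genes outside the mitochondrial genome (y); orange points pass as deposited, black rings mark those that pass after rescaling, and the dotted line marks equal values. All points lie below the dotted line, and Rpl41, Rps19bp1 and Rps27l are ringed.

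Rpl3l (chromosome 17, 24727820 to 24736143, mm10) showed the largest change of all members. It had 109.8 and 49.8 FPKM at day 0, 7.62 and 7.66 FPKM at day 3, 2.37 and 4.07 FPKM at day 6, and 4.71, 3.89 and 4.13 FPKM at day 9 in control skin. Irradiated skin had 7.43, 15.2 and 8.15 FPKM at day 3, 7.06 and 7.27 FPKM at day 6, and 3.49, 5.26 and 2.94 FPKM at day 9. Both day 0 libraries were far above every later library in either arm. On the log2 scale Rpl3l fell, with differences of -3.12 at day 3 (SE 0.36, adjusted p = 8.82e-05), -4.18 at day 6 (adjusted p = 2.55e-05) and -3.84 at day 9 (adjusted p = 8.14e-06), and it passed under every alternative setting tried. Its difference between the arms did not pass: 0.39 on average (SE 0.19, adjusted p = 0.25), although at day 6 both irradiated libraries were above both control libraries (0.98, SE 0.36, adjusted p = 0.247). As a percent of Rpl3 FPKM it was 0.799 to 4.38% in irradiated skin, 0.631 to 2.08% in later control skin, and 18.9% and 41.0% at day 0.

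Skeletal muscle markers fell in the same comparisons as Rpl3l. All 6 of 7 listed markers that passed the filter (among them Acta1, Ckm, Tnnt3 and Myh4, which encode contractile or energy proteins of muscle) fell in control skin at days 3, 6 and 9 against day 0. Ckm, muscle creatine kinase, differed by -2.8 at day 3, -2.89 at day 6 and -3.4 at day 9 (adjusted p = 0.000359, 0.000329 and 3.02e-05). The summed FPKM of all 7 listed was 16460 to 19190 at day 0, against 2705 to 3800, 2596 to 3689 and 1155 to 2174 at days 3, 6 and 9. Between the arms 0 of these 6 markers passed on average, with sums of 1211 to 4127 FPKM over the irradiated libraries and 1155 to 3800 FPKM over the control libraries of the same days. What part muscle has in the Rpl3l values was not tested.

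**Figure D5:**
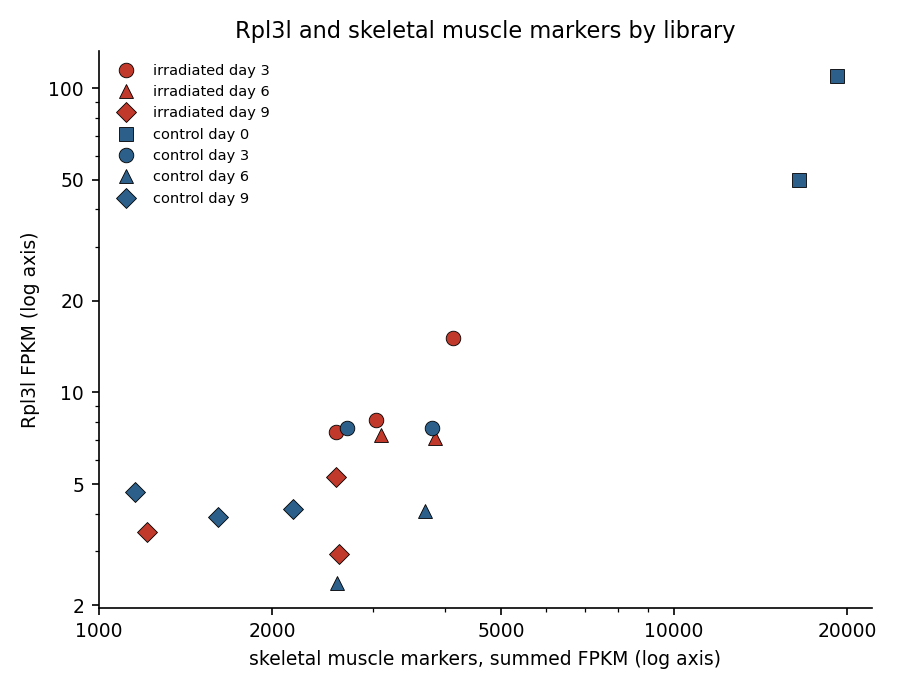
Rpl3l FPKM (y, log axis) against the summed FPKM of 7 skeletal muscle markers (x, log axis) in each of the 17 libraries; red irradiated, blue control, with a symbol for each day. The 2 control day 0 libraries lie apart at the upper right, at 49.8 and 109.8 FPKM of Rpl3l and 16460 to 19190 FPKM of muscle markers.

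Between days 3 and 9, 1 member passed in control skin and 0 in irradiated skin. In control skin at day 9 against day 3, 0 members were higher and 1 lower, against 10.2% of all genes lower. The median member was at -0.14 and that of all genes at -0.07, with 72 of 79 members below 0. The member that passed was Rps2, a small-subunit protein near the entry of the messenger RNA channel, with 663, 623 and 560.1 FPKM at day 9, against 820.3 and 888 FPKM at day 3. These groups did not overlap, and Rps2 fell by 0.47 (SE 0.11, adjusted p = 0.0155), a call lost without either day 3 library. In irradiated skin at day 9 against day 3 limma called 0 members (2 at an unadjusted p under 0.05, lowest adjusted p 0.0824), against 0.963% of all genes. Rps2 there had 709, 741 and 768 FPKM at day 9, against 865, 718 and 828 FPKM at day 3, a difference of -0.12 (adjusted p = 0.626). Its change from day 3 to day 9 differed between the arms by 0.36 (SE 0.15), with an adjusted p of 0.316.

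Other genes of the translation machinery were read from lists. Among 6 ribosomal or ribosome-bound proteins outside the name rule (Rpsa, Rplp0, Rplp1, Rplp2, Fau and Rack1), 0 passed for irradiation on average. Against day 0 in control skin, 2 were higher at day 3 (Rack1 and Rpsa), 4 at day 6 (Fau, Rack1, Rplp0 and Rpsa) and 1 at day 9 (Rack1). Rack1, a scaffold on the small subunit, was 0.48 higher at day 6 (SE 0.10, adjusted p = 0.00415), and with the mitochondrial genome left out of the scale 0 of the 6 were higher at any of the 3 days and 1 was lower at days 6 and 9. Of 20 translation factors and related messenger RNAs with a pyrimidine start, 0 passed for irradiation on average. At day 9, 1 of the 20 was called, against 5.38% of all genes. It was Eif2s3x, a subunit of the initiator tRNA carrier eIF2, 0.47 higher in irradiated skin (SE 0.08, adjusted p = 0.0115). Against day 0, 7 of the 20 were higher and 1 lower at day 3, 5 higher and 0 lower at day 6, and 3 higher and 3 lower at day 9. Beside both lists, 25.8%, 21.1% and 30.4% of all genes were higher at days 3, 6 and 9. Lower were 12.4%, 14.2% and 18% of all genes.

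Genes listed for ribosome assembly, which transcribe or process ribosomal RNA or join it with the proteins, were mostly higher at day 3. Of 30 tested, 22 were higher and 0 lower in control skin at day 3 against day 0, with a median of 0.47, where 25.8% of all genes were higher. Nop56 was 1.02 higher (SE 0.17, adjusted p = 0.000607) and Nop58, its partner in guiding RNA methylation, 0.97 higher (SE 0.11, adjusted p = 6.28e-05). Under the rescaling without mitochondrial genes 14 were higher and 0 lower, with a median of 0.34, and with an equal median of the members 8 were higher and 1 lower. At day 6, 8 were higher and 1 lower as deposited, against 3 higher and 4 lower after the rescaling. At day 9, 6 were higher and 2 lower as deposited. With FPKM as deposited, 21.1% and 30.4% of all genes were higher at days 6 and 9. In irradiated against control skin, 2 of 30 were higher on average, where 4.36% of all genes were: Mybbp1a (0.32, SE 0.08, adjusted p = 0.0306) and Nop14 (0.21, SE 0.05, adjusted p = 0.027), neither of which passed under that rescaling. Proliferation markers, 5 of 5, were also higher in control skin at days 3, 6 and 9 against day 0, with sums of 80.9 to 81.2 FPKM at day 3, against 13.6 to 23.5 FPKM at day 0. What part proliferation has in these values was not tested.

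Mitochondrial ribosomal proteins, which are encoded in the nucleus and serve the separate ribosome of mitochondria, were more often lower than higher in control skin after day 0. Of 77 tested, 4 were higher and 23 lower at day 3, 1 higher and 33 lower at day 6, and 1 higher and 43 lower at day 9 against day 0. Of all genes 12.4%, 14.2% and 18% were lower at those days. The list's medians were -0.06, -0.24 and -0.30. In the same comparisons 6 of 6 skeletal muscle markers fell, with medians of -2.57, -2.66 and -3.46. The mitochondrial genome's share of summed FPKM was 9.32 to 12.6% in later control skin, against 21.7 to 31.8% at day 0. The part of either in these values was not tested. Under all 4 other scalings tried the median was below 0 at each of these days. Several of these scalings themselves moved differences from day 0 downward. For Rpl3l at day 6, -4.18 as deposited became -4.31 (median of ratios), -4.38 (outside the mitochondrial genome) and -4.51 (equal median of the members). Rescaled to genes outside the mitochondrial genome, 58 were lower and 0 higher at day 6. That rescaling also lowered cytosolic members, such as Rpl8, from 0.24 to 0.01. The share of all genes lower under it is not given here, so the 58 cannot be set against the 14.2% above. In irradiated against control skin 4 of 77 were higher on average, where 4.36% of all genes were, among them Mrps18b (0.27, SE 0.06, adjusted p = 0.0134) and Mrps18a (0.25, SE 0.05, adjusted p = 0.00886), with 73 not passing.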

How the data were processed

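RNA of mouse skin was measured in 17 libraries of 7 groups, prepared with Smart-Seq2 and sequenced on a NovaSeq 6000 per the labels' protocols. Alignment used HISAT2 2.2.1 and mm10 per the submitters' processing notes. The sources used here name no counting tool or annotation. The authors deposited FPKM, with no counts. With gene lengths from GENCODE M21, or a searched length, 99.9% of nonzero values were whole numbers of fragments within 0.01. All 81 members came out whole, 69 at the GENCODE length and 12 at a searched one. From FPKM as deposited, log2(FPKM + 1) of genes with at least 1 FPKM in at least 2 libraries was fitted in R 4.3.3 by the limma-trend method of limma 3.58.1, giving each group 1 mean. P-values were adjusted by Benjamini-Hochberg over 15271 genes, without pairing libraries. The script was tested on simulated data. Alternatives were another pseudocount (0.1, 5), filter, scaling, array weights, replicate block, only the groups compared, each library left out, and, chosen after seeing the data, limma-voom on recovered fragments and an equal median of the members. The members and lists were chosen with earlier results of these data known, and 1 listed gene is not reported here. Named were the 3 highest and 3 lowest passing members of each comparison, the paralog pairs, Rpl5, Rpl11, Rpl23, Rps6, Rps19bp1 and the member with the largest spread; other members named were chosen after their values were seen. Promoters are from RefSeq (GRCm38.p6).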

Additional observations from a re-analysis of the deposited data

How the results depend on the processing

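Rps27l stayed past the threshold for irradiation averaged over days under every alternative run, and Rpl3l did so in all 3 comparisons with day 0. Sign was followed across the settings for 37 named fold changes only, and none of these reversed where it passed. The other members called were not followed in this way. Numbers of members called follow, without the share of all genes called in the same fits. They are given as days 3, 6 and 9 against day 0 in control skin, where the settings reported gave 22, 37 and 9. Without a filter on low values they were 12, 15 and 5, with median-of-ratios scaling 3, 5 and 4, with only the groups compared 2, 1 and 2. Rescaling outside the mitochondrial genome gave 4 at day 3 and 4 at day 6, an equal median of the members 8 and 10, and array quality weights 12 and 6. Quantile normalization gave 14 at day 6. Counts with 1 library left out ran from 3 to 13 (day 3), from 4 to 33 (day 6) and from 2 to 15 (day 9). For irradiation averaged over days, quantile normalization called 2 members and leave-one-out fits 1 to 3. Array quality weights called 1 at day 3 (Rps27l) and 2 at day 9 (Rpl22l1 and Rps2), and leave-one-out fits called 0 for day 3, up to 3 for day 6 (lowest 0), up to 1 for day 9 (lowest 0) and 0 to 1 in the F test over days. For control day 9 against day 3, no filter gave 0, median-of-ratios scaling 0, array quality weights 8 and leave-one-out fits 0 to 1. For irradiated day 9 against day 3, array quality weights called 3. The fit only of the groups compared has fewer libraries to estimate the spread; for the other settings the cause was not tested. Limma-voom on recovered fragments called 21, 37 and 9 members against day 0. Libraries that share a day and a replicate number had residual correlations of -0.122 to 0.298. Such pairs are few and their groups small, so these values cannot decide whether the numbers pair libraries. With a replicate block, 11 members were called at day 3 against day 0, 30 at day 6 and 8 at day 9.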
